A study of Mus musculus with 18 samples.

Results

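Killer lymphocytes carry a set of genes for the contents of their cytotoxic granules and for the receptors that steer them, and 8 such genes were followed through mouse hearts after myocardial infarction. They encode granzyme A (Gzma), granzyme B (Gzmb), granzyme K (Gzmk), perforin (Prf1), the granule membrane protein Nkg7, the receptor chains Klrd1 and Ncr1, and Il2rb, a chain of the receptors for interleukin-2 and interleukin-15. The 8 were taken by gene symbol from tables of 18414 genes, and they were chosen by their FPKM values in the day 7 comparison of these same libraries, where they were higher. Values of that comparison are therefore given as a description, with no p for any of the 8.

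RNA from heart tissue was sequenced as messenger RNA in 18 libraries, which fall into 6 groups of 3. All mice had a myocardial infarction, and each injection was either PBS (buffer) or a nanomedicine, named aNMP-2a, aNMP-2b or aNMP-2c. The aNMP-2a_D3 group received aNMP-2a on day 3 and the PBS_D3 group received PBS, and hearts were taken on day 4. Both day 7 groups had been given aNMP-2a on day 3; aNMP-2a+2b_D7 then had aNMP-2b on day 7 and aNMP-2a+PBS_D7 had PBS, with hearts taken on day 8. Both day 14 groups had been given aNMP-2a and then aNMP-2b; aNMP-2a+2b+2c_D14 then had aNMP-2c on day 14 and aNMP-2a+2b+PBS_D14 had PBS, with hearts taken on day 15. Strain, age and sex are not given in the labels used here, nor is it said that the 3 libraries of a group are separate animals, so p-values measure the spread between these libraries, which may be technical. No group without an infarction and no later group without a nanomedicine was analysed here.

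Cytotoxic T cells and natural killer (NK) cells kill a target by releasing granules, in which perforin opens the target membrane and granzymes, which are serine proteases, enter and cleave proteins inside. NK receptors read molecules on other cells: Klrd1 (CD94) pairs with NKG2 chains and binds non-classical MHC class I, and Ncr1 (NKp46) is an activating receptor used to mark NK cells. After an infarction such lymphocytes are a small part of the leukocytes that enter the heart, and heart tissue also holds cardiomyocytes, fibroblasts, vessels and macrophages. In a whole tissue, a lower value from fewer cells of a type and one from less RNA per cell cannot be told apart.

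The values are FPKM, fragments scaled to the length of the transcript and to the mapped fragments of the library, as deposited by the authors. FPKM summed to between 704356 and 814452 per library. The number of reads behind them is unknown, so no counting interval is given. Atrial RNA differed between libraries: Myl7, an atrial myosin light chain, was at 1312 and 2982 FPKM in aNMP-2a_D3 replicates 1 and 3, at 2.56 FPKM in replicate 2, and between 0.24 and 1.28 FPKM in PBS_D3. On day 7 it ran from 1.08 to 2097 FPKM in aNMP-2a+2b_D7 and from 1.86 to 1350 FPKM in aNMP-2a+PBS_D7. On day 14 it ran from 2.07 to 770 FPKM in aNMP-2a+2b+2c_D14 and from 2.53 to 930 FPKM in aNMP-2a+2b+PBS_D14. A library rich in leukocytes, aNMP-2a+PBS_D7 replicate 1, had 20.4 FPKM of the pan-leukocyte gene Ptprc (CD45), and the other 2 libraries of its group had 7.73 and 6.89 FPKM.

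The 8 genes lie on 6 chromosomes of GRCm38.p6. Gzma (chromosome 13, 113093824 to 113100981) and Gzmk (chromosome 13, 113171630 to 113180965) are neighbours in the genome, 70.6 kb apart. Gzmb is on chromosome 14 (56258836 to 56262334), Prf1 on chromosome 10 (61297751 to 61304684), Nkg7 on chromosome 7 (43437138 to 43438246), Ncr1 on chromosome 7 (4337715 to 4345184), Klrd1 on chromosome 6 (129588092 to 129598775) and Il2rb on chromosome 15 (78479256 to 78511621). In the RefSeq table Gzma lies within the span of Cdc20b, which averaged 0.0472 FPKM over the 18 libraries, and whether reads were counted by strand is not given in the sources used here. Gzmb lies in a cluster of related granzyme genes, and how reads shared between them were counted is not given either. Promoters of 6 of the 8 were found in the RefSeq promoter table for GRCm38.p6; Klrd1 and Il2rb were not in it. The 250 bases before the RefSeq transcript start are shown for Gzma and Prf1, the most alike pair in these libraries, for Nkg7, which holds the most kinds of match, and for Gzmk, which followed the day 7 groups least. They are read 5′ to 3′ on the strand of the gene. Capitals mark matches, on either strand, to short motifs of factor families known in killer lymphocytes.
Gzma, minus strand, chr13:113100982-113101231: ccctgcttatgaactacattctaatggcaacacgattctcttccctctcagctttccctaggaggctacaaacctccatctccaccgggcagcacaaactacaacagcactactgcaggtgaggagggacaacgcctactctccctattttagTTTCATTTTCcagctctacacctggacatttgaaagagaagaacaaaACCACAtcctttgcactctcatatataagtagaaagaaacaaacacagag
Prf1, plus strand, chr10:61297586-61297835: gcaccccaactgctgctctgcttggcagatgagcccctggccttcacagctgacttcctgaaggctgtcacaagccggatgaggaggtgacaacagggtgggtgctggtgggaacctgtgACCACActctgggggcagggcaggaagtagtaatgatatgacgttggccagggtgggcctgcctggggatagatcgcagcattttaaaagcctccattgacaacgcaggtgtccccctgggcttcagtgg
Nkg7, plus strand, chr7:43436888-43437137: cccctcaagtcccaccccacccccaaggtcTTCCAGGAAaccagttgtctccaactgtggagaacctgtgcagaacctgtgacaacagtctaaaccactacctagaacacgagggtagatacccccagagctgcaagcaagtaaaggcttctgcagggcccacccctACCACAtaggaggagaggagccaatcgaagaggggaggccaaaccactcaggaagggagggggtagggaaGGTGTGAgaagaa
Gzmk, minus strand, chr13:113180966-113181215: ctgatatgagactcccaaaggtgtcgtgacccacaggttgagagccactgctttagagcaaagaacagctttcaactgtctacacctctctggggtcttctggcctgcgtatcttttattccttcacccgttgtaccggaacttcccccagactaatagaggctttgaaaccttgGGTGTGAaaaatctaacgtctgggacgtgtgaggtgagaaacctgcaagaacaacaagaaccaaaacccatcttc

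The RUNX letters, written ACCACA in the promoters shown, were searched as TGTGGT on both strands and found in 5 of the 6 promoters, those of Gzma, Gzmb, Prf1, Nkg7 and Ncr1, and in 14.2% of the 27025 promoters of the same length. In Gzma the match began 50 bases before the start, in Prf1 130 bases and in Nkg7 83 bases. Gzmb and Ncr1 held 2 matches each. The T-box letters GGTGTGA were in the promoters of Gzmk and Nkg7, and in 3.31% of all promoters. Nkg7 also held a STAT match (TTCNNNGAA, 7.18% of promoters), and among the 6 the interferon-response letters, TTTC followed by 2 bases of any kind and TTTC again (3.04% of promoters), were found in Gzma. The cyclic AMP response letters TGACGTCA, in 1.62% of promoters, were in none of the 6. The motifs do not overlap in the promoters shown. A match describes these letters only and is no evidence of binding.

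Per transcript length, Gzma, Nkg7 and Gzmb were the most abundant of the 8. Averaged over the 18 libraries, Gzma had 15.0 FPKM and Nkg7 13.1 FPKM, followed by Gzmb (7.53 FPKM). The receptor chains were lower, with 3.90 FPKM for Il2rb and 2.75 FPKM for Klrd1. Prf1 (1.37 FPKM), Gzmk (1.27 FPKM) and Ncr1 (1.09 FPKM) were the lowest. Between the highest and the lowest library, Gzmk spanned 37.3-fold, Gzmb 25.3-fold, Gzma 11.7-fold and Nkg7 10.8-fold, and the other 4 genes between 6.35-fold (Klrd1) and 9.57-fold (Ncr1).

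Over the 6 groups, aNMP-2a+2b_D7 had the highest mean for 7 of the 8 genes, and aNMP-2a+2b+2c_D14 had it for Gzmk. The group aNMP-2a+2b+2c_D14 came next for 5 genes, and aNMP-2a+2b+PBS_D14 had the lowest mean for 5. Few neighbours in these orders were apart beyond their ranges. For Gzma, Prf1 and Ncr1 the libraries of aNMP-2a+2b_D7 lay above every library of the group after it in the order. For Gzma, aNMP-2a_D3 also lay above aNMP-2a+PBS_D7, its neighbour in the order, and for Il2rb aNMP-2a+2b+2c_D14 lay above PBS_D3. All other neighbouring groups overlapped.

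**Figure D1:**
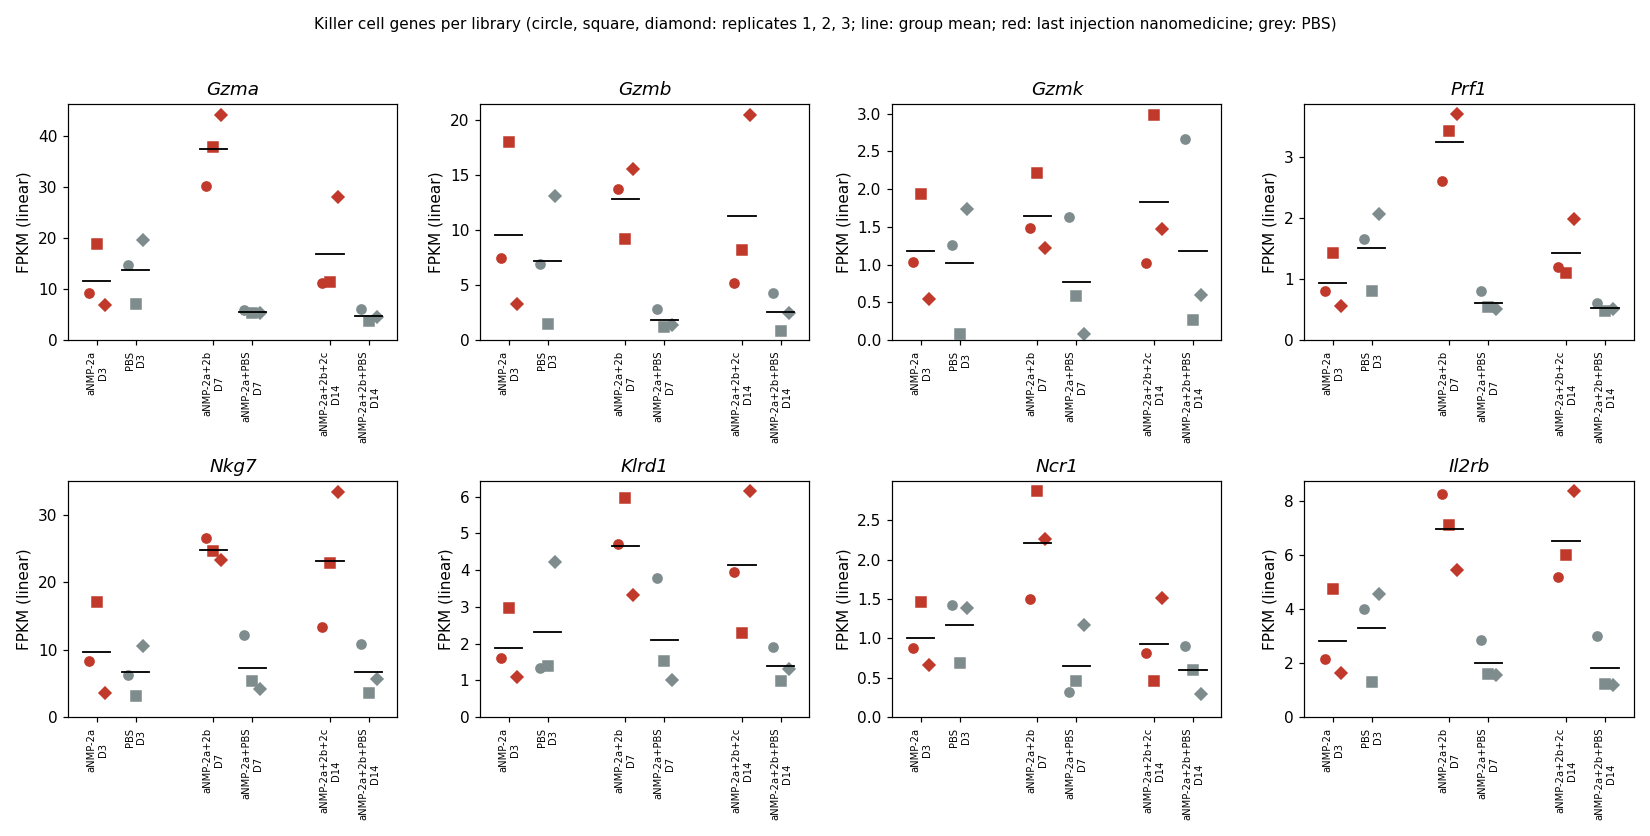
FPKM (linear axis) of the 8 genes in each of the 18 libraries; circles, squares and diamonds are replicates 1, 2 and 3, lines are group means, red groups had a nanomedicine as the last injection and grey groups had PBS. Gzma stands at 30.2 to 44.3 FPKM in aNMP-2a+2b_D7 and at 5.22 to 5.96 FPKM in aNMP-2a+PBS_D7, while the day 3 groups overlap for every gene.

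The day 3 comparison set aNMP-2a against PBS 1 day after the injection. None of the 8 genes passed (limma, Benjamini-Hochberg adjusted p under 0.05 over all genes tested), and the groups overlapped for all 8. The granule proteases varied widely within each group. Gzma had 9.24, 18.8 and 6.86 FPKM in aNMP-2a_D3 hearts, against 14.7, 6.98 and 19.6 FPKM in PBS_D3 hearts. Gzmb, which in target cells cleaves caspases, had 7.45, 18.1 and 3.23 FPKM in aNMP-2a_D3 and 6.95, 1.44 and 13.1 FPKM in PBS_D3. In both genes 1 library of aNMP-2a_D3 and 1 of PBS_D3 were high and 1 of each was low. Perforin had 0.80, 1.43 and 0.56 FPKM in aNMP-2a_D3 and 1.65, 0.81 and 2.07 FPKM in PBS_D3, a log2 fold change of −0.48 (SE 0.30, adjusted p = 0.459), which had the smallest p of the 8.

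The day 3 log2 fold changes, on the log2(FPKM + 0.5) scale used throughout, were −0.24 for Gzma (adjusted p = 0.844), 0.50 for Gzmb (0.820), 0.26 for Gzmk (0.850) and 0.42 for Nkg7 (0.784). They were −0.16 for each of the receptor genes Klrd1, Ncr1 and Il2rb. All 8 genes passed the filter of 1 FPKM in at least 3 of the 6 libraries. Their median was −0.16, with 3 of 8 above 0, against a median of 0.03 over the 12512 genes tested. In that comparison 1.84% of genes were called, 176 higher and 54 lower. Libraries of aNMP-2a_D3 did not overlap those of PBS_D3 on the higher side for 14.4% of genes and on the lower side for 8.5%. Without the 2 libraries with at least 50 FPKM of Myl7, which leaves aNMP-2a_D3 replicate 2 as the lone library of its group and assumes that it varies like PBS_D3, the estimates of Gzma, Klrd1, Ncr1 and Il2rb turned positive (0.26 to 0.60), and none passed.

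On day 7 the question was the effect of aNMP-2b in mice already given aNMP-2a, and its values chose the 8 genes. All 8 had a higher mean in aNMP-2a+2b_D7, and for 6 of the 8 the libraries of the groups did not overlap; such a gap on the higher side was seen for 6.78% of the 12711 genes tested. Gzma was the 1 gene called in that comparison, which is 0.00787% of genes. Without aNMP-2a+PBS_D7 replicate 1, 277 genes were called, 5 of the 8 among them; without replicate 2 or 3 of either group, 0 were. These counts describe the choice of the genes and carry no support.

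Gzma had 30.2, 37.8 and 44.3 FPKM in aNMP-2a+2b_D7, against 5.96, 5.22 and 5.34 FPKM in aNMP-2a+PBS_D7. The ratio of the means was 6.79 and the log2 fold change 2.64. The aNMP-2a+PBS_D7 libraries were close together, and every aNMP-2a+2b_D7 library was higher than any other of the 18 libraries. Gzmb had 13.7, 9.22 and 15.5 FPKM in aNMP-2a+2b_D7 and 2.80, 1.22 and 1.40 FPKM in aNMP-2a+PBS_D7, with a ratio of means of 7.10. Prf1 had 2.60, 3.42 and 3.70 FPKM in aNMP-2a+2b_D7 and 0.80, 0.54 and 0.50 FPKM in aNMP-2a+PBS_D7, with a ratio of 5.28. Thus the 2 main granule proteases and perforin were each apart between the groups, by log2 differences of 2.64, 2.56 and 1.75.

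Nkg7, which takes part in the release of granules, had 26.6, 24.6 and 23.3 FPKM in aNMP-2a+2b_D7 and 12.3, 5.37 and 4.20 FPKM in aNMP-2a+PBS_D7. Il2rb had 8.28, 7.13 and 5.47 FPKM in aNMP-2a+2b_D7 and 2.84, 1.60 and 1.56 FPKM in aNMP-2a+PBS_D7. Their log2 fold changes were 1.84 for Nkg7 and 1.60 for Il2rb, and neither overlapped. Ncr1 had 1.50, 2.87 and 2.27 FPKM in aNMP-2a+2b_D7 and 0.32, 0.46 and 1.17 FPKM in aNMP-2a+PBS_D7. The gap for Ncr1 was narrow, with its highest aNMP-2a+PBS_D7 library at 1.17 FPKM and its lowest aNMP-2a+2b_D7 library at 1.50 FPKM.

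Klrd1 and Gzmk were the 2 genes that overlapped on day 7. Klrd1 had 4.71, 5.96 and 3.32 FPKM in aNMP-2a+2b_D7 and 3.80, 1.52 and 1.00 FPKM in aNMP-2a+PBS_D7. Gzmk had 1.49, 2.21 and 1.22 FPKM in aNMP-2a+2b_D7 and 1.63, 0.58 and 0.08 FPKM in aNMP-2a+PBS_D7. In both it was replicate 1 of aNMP-2a+PBS_D7 that reached into the other group. That library was as rich in leukocyte RNA as the aNMP-2a+2b_D7 libraries, with 20.4 FPKM of Ptprc, against 20.2 to 24.8 FPKM in aNMP-2a+2b_D7. Its Cd3e, a chain of the T cell receptor complex, was 2.86 FPKM, within the 1.54 to 4.01 FPKM of aNMP-2a+2b_D7. Its Gzma (5.96 FPKM), Gzmb (2.80 FPKM), Prf1 (0.80 FPKM), Nkg7 (12.3 FPKM), Il2rb (2.84 FPKM) and Ncr1 (0.32 FPKM) lay below every aNMP-2a+2b_D7 library. This holds for each library of its group, since these genes did not overlap. The summed FPKM of 8 NK cell markers, which include Ncr1, was 3.18 in this library. The other libraries of its group had 3.74 and 3.82. The part of cell makeup in these values was not tested.

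**Figure D2:**
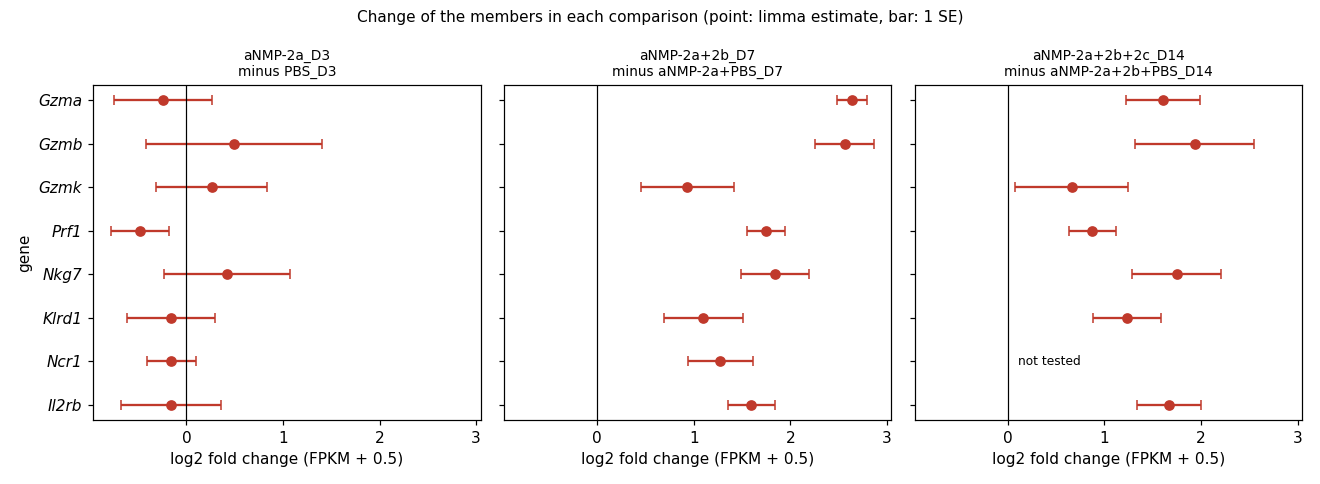
Log2 fold change of FPKM + 0.5 for the 8 genes in the day 3, day 7 and day 14 comparisons; points are limma estimates and bars are 1 SE. Day 3 estimates run from −0.48 (Prf1) to 0.50 (Gzmb), day 7 estimates from 0.93 (Gzmk) to 2.64 (Gzma) and day 14 estimates from 0.66 (Gzmk) to 1.93 (Gzmb), with Ncr1 not tested on day 14.

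The day 14 comparison asked what aNMP-2c added after both earlier agents. None of the 7 genes that could be tested passed, and in limma 0 of 12440 genes did (0%), while 1064 genes (8.55%) had an unadjusted p under 0.05. Of the 7, 6 had an unadjusted p under 0.05, each on the higher side, where 6.16% of genes had one. Ncr1 did not reach the filter: it had 0.82, 0.46 and 1.51 FPKM in aNMP-2a+2b+2c_D14 and 0.90, 0.60 and 0.30 FPKM in aNMP-2a+2b+PBS_D14, and the groups overlapped. The libraries of aNMP-2a+2b+2c_D14 lay above all those of aNMP-2a+2b+PBS_D14 for 6 of the 8 genes, and such a gap was seen for 9.95% of genes tested. The median log2 fold change of the 7 was 1.61, against 0.02 over all genes tested, but the 7 were chosen with earlier results known. A gene that reaches the filter only through its higher group is bound to lean that way, and Prf1 was such a gene. Gzma, Nkg7 and Il2rb reached 1 FPKM in every library of both groups. Gzmb, Klrd1 and Gzmk fell below it in part of aNMP-2a+2b+PBS_D14.

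Gzma had 11.3, 11.3 and 28.2 FPKM in aNMP-2a+2b+2c_D14, against 6.13, 3.79 and 4.45 FPKM in aNMP-2a+2b+PBS_D14 (log2 fold change 1.61, SE 0.38, adjusted p = 0.386). Nkg7 had 13.3, 22.9 and 33.5 FPKM in aNMP-2a+2b+2c_D14 and 10.9, 3.61 and 5.69 FPKM in aNMP-2a+2b+PBS_D14 (1.75, SE 0.46, adjusted p = 0.400). Il2rb had 5.18, 6.01 and 8.38 FPKM in aNMP-2a+2b+2c_D14 and 3.02, 1.24 and 1.18 FPKM in aNMP-2a+2b+PBS_D14 (1.67, SE 0.33, adjusted p = 0.381). In all 3 genes replicate 3 was the highest library of aNMP-2a+2b+2c_D14 and replicate 1 the highest of aNMP-2a+2b+PBS_D14.

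Gzmb had 5.20, 8.15 and 20.5 FPKM in aNMP-2a+2b+2c_D14 and 4.23, 0.81 and 2.50 FPKM in aNMP-2a+2b+PBS_D14. Its log2 fold change was the largest of the 7, at 1.93, with the largest SE as well (0.62, adjusted p = 0.468). Prf1 had 1.19, 1.10 and 1.98 FPKM in aNMP-2a+2b+2c_D14 and 0.60, 0.48 and 0.51 FPKM in aNMP-2a+2b+PBS_D14 (0.87, SE 0.24, adjusted p = 0.400). Klrd1, which overlapped on day 7, did not on day 14: it had 3.94, 2.30 and 6.16 FPKM in aNMP-2a+2b+2c_D14 and 1.90, 0.97 and 1.31 FPKM in aNMP-2a+2b+PBS_D14 (1.23, SE 0.35, adjusted p = 0.407). Gzmk again overlapped, with 1.02, 2.98 and 1.47 FPKM in aNMP-2a+2b+2c_D14 and 2.66, 0.26 and 0.60 FPKM in aNMP-2a+2b+PBS_D14 (0.66, SE 0.58, adjusted p = 0.834). With the libraries of at least 50 FPKM of Myl7 left out the estimate for Gzmk was −0.87. That fit left replicate 1, with 2.66 FPKM of Gzmk, as the lone library of aNMP-2a+2b+PBS_D14.

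The difference between the day 14 and the day 3 effects was tested as an interaction in 1 limma fit of the 18 libraries. No gene of 13116 passed (0%), and 642 genes (4.89%) had an unadjusted p under 0.05. Of the 8 genes, which were chosen with earlier results known, 4 had one, each on the higher side. All 8 genes had a larger estimate on day 14, by 1.85 for Gzma (SE 0.58), 1.83 for Il2rb (SE 0.59) and 1.36 for Prf1 (SE 0.38), each with an adjusted p of 0.944. The smallest differences were 0.51 for Ncr1 and 0.40 for Gzmk. Without aNMP-2a+2b+2c_D14 replicate 1, 82 genes passed. A difference between the 2 effects was thus not shown for any of the 8 genes.

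In groups whose last injection was PBS, aNMP-2a+2b+PBS_D14 was set against PBS_D3 in the same fit. These groups differ in the day, in the earlier agents and in the deposited table, which cannot be told apart. Gzma had 6.13, 3.79 and 4.45 FPKM in aNMP-2a+2b+PBS_D14 and 14.7, 6.98 and 19.6 FPKM in PBS_D3, with no overlap (log2 fold change −1.34, SE 0.41, adjusted p = 0.235). Prf1 had 0.60, 0.48 and 0.51 FPKM in aNMP-2a+2b+PBS_D14 and 1.65, 0.81 and 2.07 FPKM in PBS_D3, again apart (−0.91, SE 0.27, adjusted p = 0.217). Nkg7, also a granule gene, averaged 6.74 ± 3.76 FPKM in aNMP-2a+2b+PBS_D14 and 6.64 ± 3.75 FPKM in PBS_D3 (mean ± SD, n = 3 each; 0.04, SE 0.55, adjusted p = 0.987). The estimate for Gzmk was also close to 0 (0.07, SE 0.61). None of the 8 passed, nor did any of the 13116 genes tested (0%), of which 1559 (11.9%) had an unadjusted p under 0.05. Of the 8, 2 had one, each on the lower side.

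Within most groups the 8 genes deviated together from library to library. All 8 were above their group's mean, on the log2 scale, in aNMP-2a_D3 replicate 2, PBS_D3 replicate 3 and aNMP-2a+2b+PBS_D14 replicate 1. All 8 were below it in aNMP-2a_D3 replicate 3, PBS_D3 replicate 2 and aNMP-2a+PBS_D7 replicate 2. In aNMP-2a+2b_D7 each library had between 4 and 6 genes above the mean, and deviations stayed between −0.42 and 0.37 on the log2 scale. In aNMP-2a+PBS_D7 replicate 1, 7 genes were above the mean and Ncr1 was 0.42 below it.

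**Figure D3:**
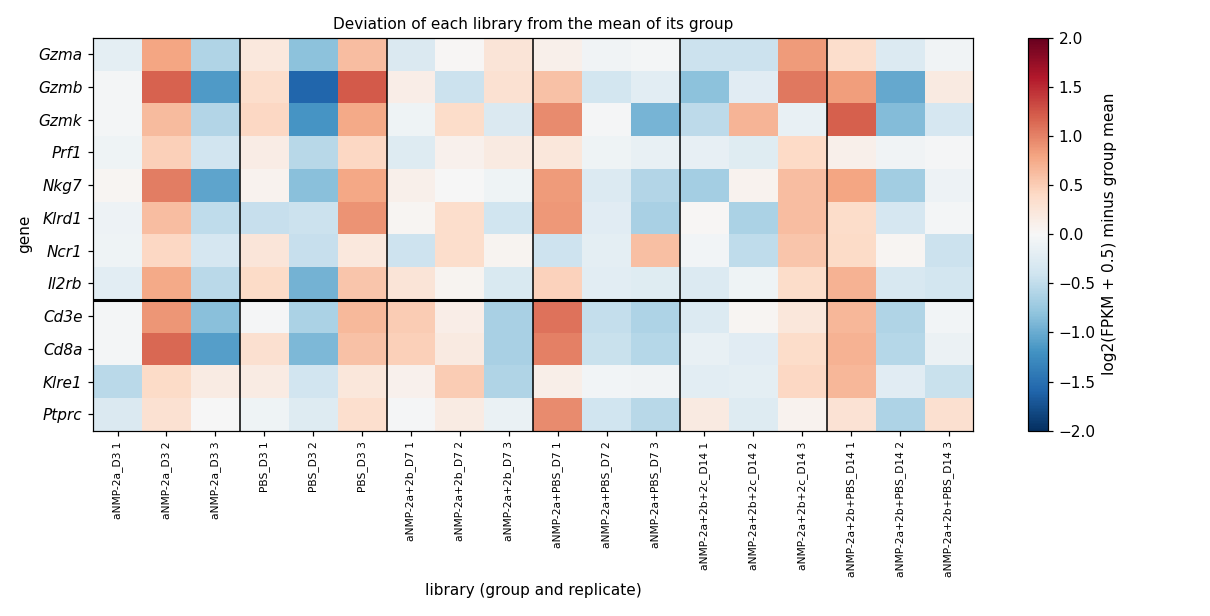
Deviation of each library from the mean of its group on log2(FPKM + 0.5), for the 8 genes (upper rows) and for Cd3e, Cd8a, Klre1 and Ptprc (lower rows); red is above and blue below the group's mean. In the upper rows, columns of 1 colour, such as aNMP-2a_D3 replicates 2 and 3, show genes that deviate together. The upper rows of aNMP-2a+2b_D7 are pale and mixed. In the lower rows of aNMP-2a+2b_D7 replicate 3, Cd3e (−0.64), Cd8a (−0.66) and Klre1 (−0.60) are below the mean.

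With the group means taken off, Pearson r between the 8 genes over the 18 libraries ran from 0.14 (Gzmk with Ncr1) to 0.96 (Gzma with Prf1), with a median of 0.72 over the 28 pairs. Gzmb with Nkg7 was at 0.93 and Gzma with Gzmb at 0.91. Gzma and Gzmk, neighbours on chromosome 13 whose promoters are shown above, were at 0.56. The points of these correlations share libraries, and with them the cell makeup of each sample, and they are given as a description. Ncr1 stood furthest from the T cell gene Cd3e (r = 0.14), while Nkg7 (0.91), Il2rb (0.87), Klrd1 (0.83) and Gzmk (0.83) followed it closely. Gzmb (0.77), Prf1 (0.63) and Gzma (0.59) did so less. The NK cell gene Klrb1c, at a mean of 0.77 FPKM, was closer than Cd3e to Gzma (0.73), Prf1 (0.72) and Ncr1 (0.61). It was further from Klrd1 (0.74), Il2rb (0.70), Nkg7 (0.63), Gzmb (0.57) and Gzmk (0.47). Another NK cell gene, Klre1, was at 0.53 with Gzma, 0.45 with Prf1 and 0.52 with Ncr1. Klra8, also an NK cell gene, was at 0.41 with Gzma, 0.43 with Prf1 and 0.57 with Ncr1. The T cell gene Cd8a was at 0.69 with Gzma, 0.73 with Prf1 and 0.30 with Ncr1. For Gzma and Prf1 the order of NK and T cell genes thus depended on the marker taken.

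Among 13108 genes outside the 8, those most like them by the mean r to the 8, with group means taken off, were mainly T cell genes. They included Ms4a4b (0.78), the co-receptor gene Cd8a (0.75), Rasgrp1 (0.75), the NK and CD8 T cell receptor gene Klrk1 (NKG2D, 0.75), the kinase gene Zap70 (0.73), Gimap7 (0.73) and Cd3g (0.73). With group means left in, Klrk1 (0.83) led, followed by Ms4a4b (0.81), the classical MHC class I genes H2-D1 (0.81) and H2-K1 (0.80), and Ctsw (0.80), which encodes a cathepsin of killer cells. Ptprc, found in all leukocytes, was at 0.50 with group means taken off, and Myl7 was at −0.45.

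Leukocyte RNA differed between the groups as well. With group means taken off, r with Ptprc over the 18 libraries was 0.78 for Klrd1, 0.40 for Gzma and −0.07 for Ncr1. The summed FPKM of 6 leukocyte markers was 407 to 567 in aNMP-2a+2b_D7 and 138 to 454 in aNMP-2a+PBS_D7, and 353 to 598 in aNMP-2a+2b+2c_D14 and 110 to 277 in aNMP-2a+2b+PBS_D14. On day 3 it was 326 to 428 in aNMP-2a_D3 and 277 to 400 in PBS_D3. The sum of 14 T cell markers was 39.3 to 78.1 in aNMP-2a+2b_D7 and 32.3 to 76.7 in aNMP-2a+PBS_D7, and 48.2 to 75.2 in aNMP-2a+2b+2c_D14 and 21.5 to 49.8 in aNMP-2a+2b+PBS_D14. The sum of 8 NK cell markers, which include Ncr1, was 10.3 to 18.6 in aNMP-2a+2b_D7 and 3.18 to 3.82 in aNMP-2a+PBS_D7, and 5.58 to 9.95 in aNMP-2a+2b+2c_D14 and 1.74 to 4.53 in aNMP-2a+2b+PBS_D14. No gene of these lists was at 0 in all 3 libraries of a group. Markers of other tissue also moved with the day 7 groups: the fat cell gene Adipoq was at 70.7 to 108 FPKM in aNMP-2a+2b_D7 and 8.15 to 26.8 FPKM in aNMP-2a+PBS_D7, and the mesothelial gene Upk3b at 58.6 to 71.4 FPKM in aNMP-2a+2b_D7 and 10.8 to 42.7 FPKM in aNMP-2a+PBS_D7. On day 14 both overlapped, with Adipoq at 0.75 to 79.7 FPKM in aNMP-2a+2b+2c_D14 and 13.5 to 68.1 FPKM in aNMP-2a+2b+PBS_D14. The part of these shifts in the values of the 8 genes was not tested.

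Relative to Ptprc, Gzma stood at 1.39, 1.52 and 2.196 in aNMP-2a+2b_D7 and at 0.29, 0.68 and 0.78 in aNMP-2a+PBS_D7, with no overlap. On day 14 the same ratio overlapped, with 0.54, 0.74 and 1.45 in aNMP-2a+2b+2c_D14 and 0.56, 0.67 and 0.39 in aNMP-2a+2b+PBS_D14. Gzmb, Prf1, Nkg7 and Il2rb per Ptprc likewise did not overlap on day 7 and overlapped on day 14. Klrd1 per Ptprc overlapped on all 3 days, with 0.16 to 0.24 in aNMP-2a+2b_D7 and 0.15 to 0.20 in aNMP-2a+PBS_D7. Set against Cd3e in place of Ptprc, Gzma overlapped on day 7 too. These ratios were formed after the values had been seen, and they are a description. Ratios to Ptprc were not formed for Gzmk and Ncr1. The share of all genes that are apart per Ptprc was not computed.

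Gzma and Prf1 kept a narrow ratio while each varied widely. Gzma per Prf1 lay between 7.45 and 14.2 in all 18 libraries, a span under that of either gene alone. On day 3 it was 11.6, 13.1 and 12.3 in aNMP-2a_D3 and 8.89, 8.62 and 9.47 in PBS_D3, with no overlap. On day 7 it was 11.6, 11.0 and 12.0 in aNMP-2a+2b_D7 and 7.45, 9.67 and 10.7 in aNMP-2a+PBS_D7, also with no overlap. On day 14 it overlapped, at 9.46, 10.3 and 14.2 in aNMP-2a+2b+2c_D14 and 10.2, 7.90 and 8.73 in aNMP-2a+2b+PBS_D14. Several ratios between genes were formed, and the share of all such ratios that are apart was not computed. With 3 libraries against 3, the smallest p that a two-sided exact permutation test allows is 0.1, so none was run on these ratios.

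**Figure D4:**
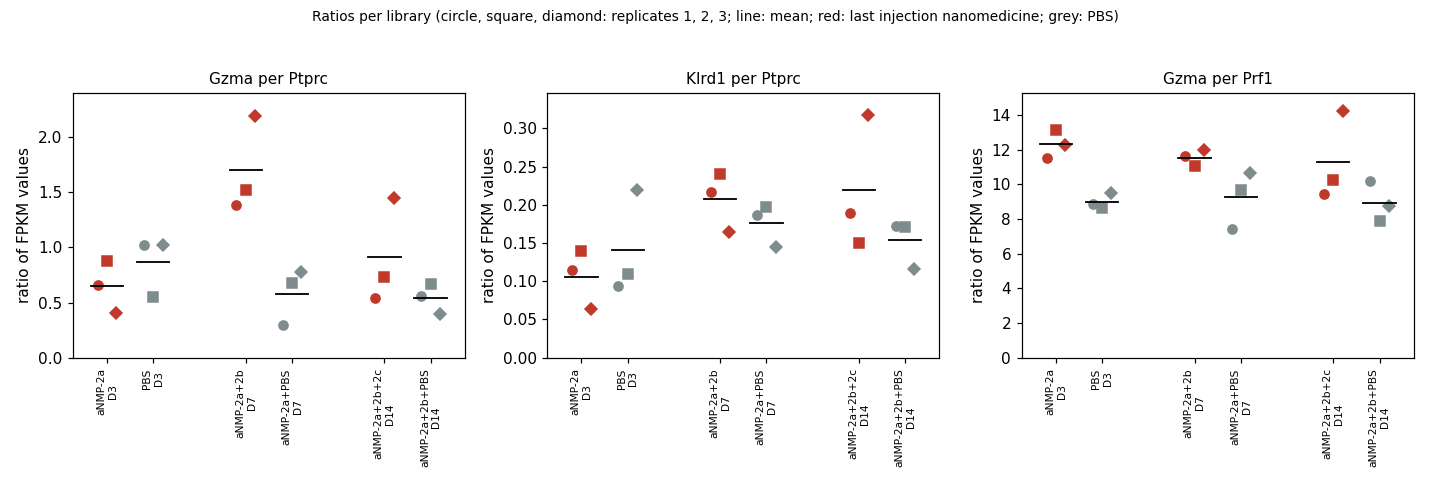
Ratio of FPKM values in each library for Gzma per Ptprc, Klrd1 per Ptprc and Gzma per Prf1; symbols, lines and colours stand for replicates, means and the last injection. Gzma per Ptprc is apart between the day 7 groups (1.39 to 2.196 and 0.29 to 0.78), Klrd1 per Ptprc overlaps on each day, and Gzma per Prf1 stays between 7.45 and 14.2.

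Partners of the 8 genes were read from lists of pathway genes, chosen with earlier results known. Of the granule helpers and inhibitors, 14, 15 and 15 of 16 genes could be tested on days 3, 7 and 14, and none passed on any day. Their median log2 fold changes were 0.15, 0.53 and 0.57. The most abundant were the granule membrane gene Lamp1, the protease gene Ctsl and Srgn, whose proteoglycan packs granules. Srgn had 148, 101 and 143 FPKM in aNMP-2a+2b+2c_D14 and 94.8, 86.8 and 83.9 FPKM in aNMP-2a+2b+PBS_D14 (log2 fold change 0.54, adjusted p = 0.464). Serpinb9, the intracellular inhibitor of granzyme B, had 18.3, 22.3 and 35.4 FPKM in aNMP-2a+2b+2c_D14 and 14.5, 11.7 and 13.6 FPKM in aNMP-2a+2b+PBS_D14, so its groups were apart in the same direction as those of Gzmb.

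Of the other NK cell receptors and factors, 10, 15 and 10 of 24 genes could be tested on days 3, 7 and 14, and none passed. Their medians were 1.30 and 1.25 on days 7 and 14 and close to 0 on day 3. Tyrobp and Fcer1g, signalling adaptors that macrophages also use, were the most abundant. Hcst, the adaptor of Klrk1, had 12.1, 11.0 and 9.61 FPKM in aNMP-2a+2b+2c_D14 and 6.14, 2.61 and 3.10 FPKM in aNMP-2a+2b+PBS_D14 (1.43, adjusted p = 0.381). Klrk1 itself had 2.23, 2.94 and 7.67 FPKM in aNMP-2a+2b+2c_D14 and 1.25, 0.76 and 0.40 FPKM in aNMP-2a+2b+PBS_D14. Tbx21, the T-box factor of cytotoxic lymphocytes, had 0.77, 1.43 and 1.78 FPKM in aNMP-2a+2b+2c_D14 and 0.62, 0.31 and 0.21 FPKM in aNMP-2a+2b+PBS_D14. All 3 were apart between the day 14 groups. Tbx21 was below the filter and was not tested, and its gap was narrow (0.77 and 0.62 FPKM). Of the 10 genes of the list that were tested on day 14, 7 were apart on the higher side, where 9.95% of all genes tested were, and Tyrobp was among the 3 that overlapped.

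The class I genes whose products these receptors read were far more abundant than the receptor genes, per transcript length: H2-K1 averaged 1165 FPKM, H2-D1 1109 FPKM and H2-T23 239 FPKM over the 18 libraries. Of 12 ligand genes, 9, 8 and 7 were tested on days 3, 7 and 14 and none passed, with medians of 1.00 and 0.92 on days 7 and 14 and a median close to 0 on day 3. H2-T23, which encodes the class I molecule Qa-1 that Klrd1 binds with its NKG2 partner, had 193, 298 and 199 FPKM in aNMP-2a_D3 and 215, 192 and 200 FPKM in PBS_D3. On day 7 H2-T23 had 284, 253 and 534 FPKM in aNMP-2a+2b_D7 and 121, 102 and 90.5 FPKM in aNMP-2a+PBS_D7. On day 14 it had 247, 317 and 687 FPKM in aNMP-2a+2b+2c_D14 and 139, 85.7 and 139 FPKM in aNMP-2a+2b+PBS_D14 (1.67, adjusted p = 0.390). The receptor gene and its ligand gene were thus both highest in replicate 3 of aNMP-2a+2b+2c_D14. In aNMP-2a+2b+PBS_D14 Klrd1 was highest in replicate 1 (1.90 FPKM), and H2-T23 had 139 FPKM in replicates 1 and 3. In aNMP-2a+2b_D7 replicate 3 was highest for H2-T23 and lowest for Klrd1. In aNMP-2a+PBS_D7 both genes were highest in replicate 1 and lowest in replicate 3.

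Of 21 genes of interleukin-2, interleukin-15, interleukin-12 and interleukin-18 signalling, 12, 15 and 13 were tested on days 3, 7 and 14. Il18r1, the receptor for interleukin-18, was the 1 that passed: it rose on day 3, with 1.84, 2.33 and 2.13 FPKM in aNMP-2a_D3 and 0.70, 0.22 and 0.63 FPKM in PBS_D3 (log2 fold change 1.39, limma adjusted p = 0.0219). Il18r1 reached the filter of 1 FPKM only through aNMP-2a_D3, its higher group, so it was bound to lean that way. On day 3, 1.84% of all genes tested were called. On day 14 Il18r1 had 2.99, 0.40 and 0.70 FPKM in aNMP-2a+2b+2c_D14 and 1.93, 1.27 and 1.30 FPKM in aNMP-2a+2b+PBS_D14. Il2rg, the chain that works with Il2rb, had 42.5, 34.6 and 61.6 FPKM in aNMP-2a+2b+2c_D14 and 31.5, 18.5 and 25.0 FPKM in aNMP-2a+2b+PBS_D14 (0.87, adjusted p = 0.454). Il15, whose product sustains NK cells, was at 0.13 in its mean r to the 8 genes with group means left in.

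Of 12 killer cell chemokine genes and receptors in the tables, 11 were tested on each day and none passed, with medians of −0.02, 0.78 and 0.90 on days 3, 7 and 14. Ccl5, which killer cells themselves make, had 68.8, 87.6 and 129 FPKM in aNMP-2a+2b+2c_D14 and 58.0, 16.5 and 28.5 FPKM in aNMP-2a+2b+PBS_D14 (1.60, adjusted p = 0.420). Cxcl9, a chemokine induced by interferon gamma that draws such cells, had 292 FPKM in aNMP-2a+2b_D7 replicate 3 and 29.3 and 16.1 FPKM in the other 2 libraries of that group. Replicate 3 was also the highest of aNMP-2a+2b_D7 for Gzma, Gzmb and Prf1 but the lowest for Gzmk, Nkg7, Klrd1 and Il2rb.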

How the data were processed

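Messenger RNA of mouse heart tissue was sequenced in 18 libraries, and the deposited tables hold FPKM computed by the authors, with 1 column per library. The unit is not named in the tables; FPKM was inferred from sums over genes, which varied less between libraries when weighted by transcript length (coefficient of variation 2.11%) than unweighted (3.81%). Per the submitters' processing notes, Bowtie2 2.2.5, RSEM 1.2.8, HISAT2 2.1.0 and the build GRCm38.p6 were used; their roles, the annotation and any filter are not given in the sources used here. No counts were used, so the depth of each library is unknown.

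Sample titles gave the groups. Every comparison within a day was fitted on its own 6 libraries, on log2(FPKM + 0.5), with limma 3.58.1 in R 4.3.3 (trended, robust empirical Bayes, two-sided). A gene was tested if 3 or more libraries reached 1 FPKM, and passed or was called if its adjusted p, by Benjamini-Hochberg over all genes tested, was under 0.05. The pseudocount of 0.5 shrinks log2 fold changes of genes near 1 FPKM. Contrasts across days came from 1 fit of the 6 groups. The scripts were tested on simulated data.

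The 8 genes and all gene lists were chosen with earlier results of these data known. Named genes are the 8, the 3 most abundant and any called gene of each list, the genes most like the 8 by mean Pearson r (8 with and 5 without group means taken off), and a fixed set of anchor genes; others, such as Hcst, Cxcl9 and Gzmc, were named after their values were seen. One gene that this rule names is not reported here. Alternatives were other pseudocounts, filters and scalings, a replicate block, plain empirical Bayes, 1 fit of all libraries, and leaving out single libraries or those with at least 50 FPKM of Myl7. Alternatives that need counts were not run. Plots were made in Python 3.11.15 (matplotlib 3.10.9).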

Additional observations from a re-analysis of the deposited data

How the results depend on the processing

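Depth is unknown, so no counting error is given, and groups of 3 libraries limit every estimate. No cause of the changes below was tested. On day 3 the 230 genes called became 3 in 1 fit of all 18 libraries and 71 to 237 with single libraries left out (82, 77 and 71 without PBS_D3 replicates 1, 2 and 3); none of the 8 genes passed in any of them. On day 7 the 1 gene called, Gzma, became 3 genes with quantile normalization and 17 in 1 fit of all 18 libraries, where 2 of the 8 genes passed (Gzma and Prf1). With libraries of at least 50 FPKM of Myl7 left out on day 7, replicate 3 was the lone library of aNMP-2a+2b_D7. In that fit 5 of the 8 genes reached the filter, with log2 fold changes from 0.59 (Klrd1) to 2.87 (Gzma). With single day 7 libraries left out, 0 to 277 genes passed, and 0 to 5 of the 8. The 277 were called without aNMP-2a+PBS_D7 replicate 1, and then Gzma, Gzmb, Prf1, Nkg7 and Il2rb passed; Gzma did not pass without aNMP-2a+2b_D7 replicate 2 or 3, or without aNMP-2a+PBS_D7 replicate 2 or 3. On day 14 no gene passed under any alternative. Between aNMP-2a+2b+PBS_D14 and PBS_D3, 32 genes passed with quantile normalization, none of them among the 8. For the difference between the day 14 and day 3 effects, 0 to 82 genes passed with single libraries left out, 82 without aNMP-2a+2b+2c_D14 replicate 1.

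Signs that turned were in estimates that had not passed. With the Myl7 libraries left out, day 3 log2 fold changes were 0.55 for Gzma, 0.46 for Klrd1, 0.26 for Ncr1 and 0.60 for Il2rb, and the day 14 value of Gzmk was −0.87. These fits left a lone library in aNMP-2a_D3 (replicate 2) and in aNMP-2a+2b+PBS_D14 (replicate 1). With single libraries left out, day 3 values ran from −0.65 to 0.064 for Gzma, −0.30 to 1.11 for Gzmb, −0.33 to 0.64 for Gzmk, −0.094 to 0.95 for Nkg7, −0.47 to 0.29 for Klrd1, −0.38 to 0.012 for Ncr1 and −0.63 to 0.12 for Il2rb. For aNMP-2a+2b+PBS_D14 against PBS_D3 they ran from −0.52 to 0.50 for Gzmk and −0.39 to 0.42 for Nkg7, and for the difference of effects from −0.033 to 0.99 for Gzmk.

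With the replicate number as a block, 0 genes passed on day 7, of the 8 also 0. On days 3 and 14 the block changed no call of the 8 genes. Pairing by number was not seen in every pair: same-numbered libraries correlated in their deviations at 0.15, −0.04 and 0.29 on day 3, −0.20, −0.11 and 0.37 on day 7 and 0.34, 0.18 and −0.18 on day 14.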

Other observations

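Not every granzyme moved with the 8 genes. Gzmm, a granzyme of NK cells and some T cells, had 5.49, 2.68 and 4.83 FPKM in aNMP-2a+2b_D7, against 5.65, 9.41 and 7.51 FPKM in aNMP-2a+PBS_D7. On day 14 Gzmm had 3.72, 8.20 and 6.59 FPKM in aNMP-2a+2b+2c_D14 and 8.30, 10.8 and 8.55 FPKM in aNMP-2a+2b+PBS_D14. The libraries were lower without overlap on both days, but the gaps were narrow. They lay between 5.49 and 5.65 FPKM on day 7 and between 8.20 and 8.30 FPKM on day 14. The share of all genes apart on the lower side on these days is not given here. The day 14 estimate for Gzmm was −0.60 on the log2 scale (limma, adjusted p = 0.632). Gzmm lies 622 bases from Cdc34 and 9097 bases from Bsg in the RefSeq table, which averaged 125 and 1151 FPKM over the 18 libraries, and whether counting used the strand is not given. Gzmc, 17189 bases from Gzmb, had 1.69, 0.31 and 4.01 FPKM in aNMP-2a+2b+2c_D14 and 0.97, 0.11 and 0 FPKM in aNMP-2a+2b+PBS_D14. Ifng, the interferon of killer cells, had 0.63, 1.24 and 3.74 FPKM in aNMP-2a+2b+2c_D14 and 0.30, 0.15 and 0 FPKM in aNMP-2a+2b+PBS_D14, below the filter.

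Other cell types followed other patterns. All 5 mesothelial markers rose on day 3, when 1.84% of all genes tested were called. Upk3b had 24.4, 17.4 and 19.0 FPKM in aNMP-2a_D3 and 3.61, 1.36 and 1.02 FPKM in PBS_D3 (log2 fold change 3.18, limma adjusted p = 0.0226). Jchain, of antibody-secreting cells, had 110, 116 and 84.8 FPKM in aNMP-2a+2b_D7 and 43.9, 43.6 and 23.4 FPKM in aNMP-2a+PBS_D7. On day 14 Jchain had 238, 4.23 and 3.86 FPKM in aNMP-2a+2b+2c_D14 and 25.1, 18.5 and 47.6 FPKM in aNMP-2a+2b+PBS_D14, so 1 library stood far above the rest. The same library had 1505 FPKM of the neutrophil gene S100a8, against 195 and 55.7 FPKM in the other 2 of its group. None of the B cell, mast cell, plasmacytoid dendritic cell, neutrophil, macrophage, leukocyte, T cell, NK cell, cardiomyocyte, atrial, fat cell, or lymph node and thymus markers passed in any of the 3 comparisons within a day. Many of these markers were below the filter: of the 8 NK cell markers, 2, 4 and 1 were tested on days 3, 7 and 14. Of all genes tested, 0.00787% were called on day 7 and 0% on day 14. The missing calls therefore do not show that cell makeup was unchanged. Median log2 fold changes of these marker lists on day 14 ran from −2.11 (fat cell markers) to 1.91 (neutrophil markers).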
